A study of Mus musculus with 19 samples.

Results

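The 9 genes described here encode the ubiquitin ligases and transcription factors of the muscle atrophy program: the ligases Fbxo32 (atrogin-1), Trim63 (MuRF1), Fbxo30 (MUSA1), Fbxo21 (SMART) and Cblb, the FoxO factors Foxo1, Foxo3 and Foxo4, and the zinc finger factor Klf15. They were taken by gene name from the scanner files of a mouse whole genome array, on which 30214 gene names are printed. The 9 genes have 16 probes, and all 16 passed the filter on dim signals, as did 32026 of the 39429 probes of the array. Transcript levels were read in quadriceps, a muscle made mostly of fast glycolytic fibers, from male congenic C57Bl6J mice of 180 days. AR113Q mice carry a knock-in of the X-linked androgen receptor gene with an expanded polyglutamine tract, the kind of mutation that causes spinal and bulbar muscular atrophy (SBMA), so that all cells using this gene make the mutant receptor. Wild type mice served as controls (CTR). From day 40, mice of each genotype ate either a purified chow (NCD) or a diet rich in fat (HFD). The 4 groups were CTR-NCD (5 arrays), AR113Q-NCD (5 arrays), CTR-HFD (4 arrays) and AR113Q-HFD (5 arrays). Nothing in the labels says that each array is a separate mouse, so the p-values measure the spread between arrays.

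When muscle wastes, ubiquitin ligases mark proteins of the sarcomere and of the translation machinery for breakdown by the proteasome. FoxO factors enter the nucleus when signaling from insulin and insulin-like growth factor through Akt falls, and there they activate Fbxo32, Trim63 and genes of autophagy. Klf15 is induced by glucocorticoids and acts beside the glucocorticoid receptor on the same ligase genes. Fbxo32 and Trim63 are commonly used as markers of ongoing atrophy, since their transcripts rise after denervation, in fasting and after glucocorticoid treatment.

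A level is given here as log2 of the processed signal minus the 75th percentile of its array, so a level of 0 is the signal that 75% of probes do not exceed, and a difference of 1 is a doubling. Levels of different probes cannot be set against each other, since each probe has its own brightness. A gene was called changed when its brightest probe, probe 1 in the text, had an adjusted p under 0.05 in limma's moderated test over all probes tested, with Benjamini-Hochberg adjustment. Over the 19 arrays, 67.07% to 80.15% of probes were well above background, and the ranges of the 4 groups overlapped. All 9 defining markers of fast fibers were detected, and 8 of the 9 fell in AR113Q in each diet, the exception being Myh1. Their mean level under NCD ranged from 8.06 to 8.34 in CTR and from 7.75 to 7.96 in AR113Q, and under HFD from 8.09 to 8.36 in CTR and from 7.65 to 7.84 in AR113Q, with no overlap between genotypes. The mean of the 6 slow fiber markers ranged widely, under NCD from 0.36 to 5.03 in CTR and from 4.84 to 5.98 in AR113Q, and under HFD from −1.64 to 5.22 in CTR and from −0.18 to 4.55 in AR113Q. All 6 were higher in AR113Q on average, with log2 fold changes of 2.02 to 2.55 in NCD and 0.87 to 1.89 in HFD. With this spread between arrays, 0 passed the test in either diet (limma, smallest adjusted p 0.146 in NCD and 0.49 in HFD). Markers of adipocytes (7), red blood cells (4) and macrophages (6) had 0 called in both diets, and at most 1 of 5 was called for Schwann cells, fibroblasts and endothelium. Of all genes, 8.31% were called higher and 9.04% lower in NCD, and 7.74% and 10.2% in HFD. With so few markers per list, low counts do not show that the cell types were unchanged. Averaged over both diets, 1 of 6 macrophage and 1 of 4 red blood cell markers were called, beside 13% of all genes higher and 16% lower. Log2 fold changes of the adipocyte markers ranged from −0.33 to 3.75 in NCD and from −1.35 to 1.19 in HFD, so a change in fat content could have been missed. In a bulk tissue, fewer fibers of a type and less RNA per fiber cannot be told apart, and the part of the fiber types in the results below was not tested.

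Comparison of the genotypes addressed how the transcripts of the atrophy program differ between AR113Q and CTR muscle in each diet. Under NCD, 2 of the 9 genes were higher in AR113Q (Foxo1 and Cblb) and 2 were lower (Fbxo32 and Trim63). Over all 24741 genes tested by their brightest probe, 8.31% were higher and 9.04% were lower. Under HFD, 1 of the 9 was higher (Cblb) and 2 were lower (Fbxo32 and Trim63), beside 7.74% of all genes higher and 10.2% lower. Averaged over both diets, 2 were higher (Foxo1 and Cblb) and 2 lower (Fbxo32 and Trim63), beside 13% of all genes higher and 16% lower. The split of all probes called in HFD moved with the scaling: 44.6% of them were higher by the 75th percentile, 56.7% by quantile normalization, 61% by median centring, 57% in the authors' values and 40.9% under normexp background correction. In NCD the same shares were 47.2%, 53.7%, 56%, 53.9% and 50.6%.

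**Figure D1:**
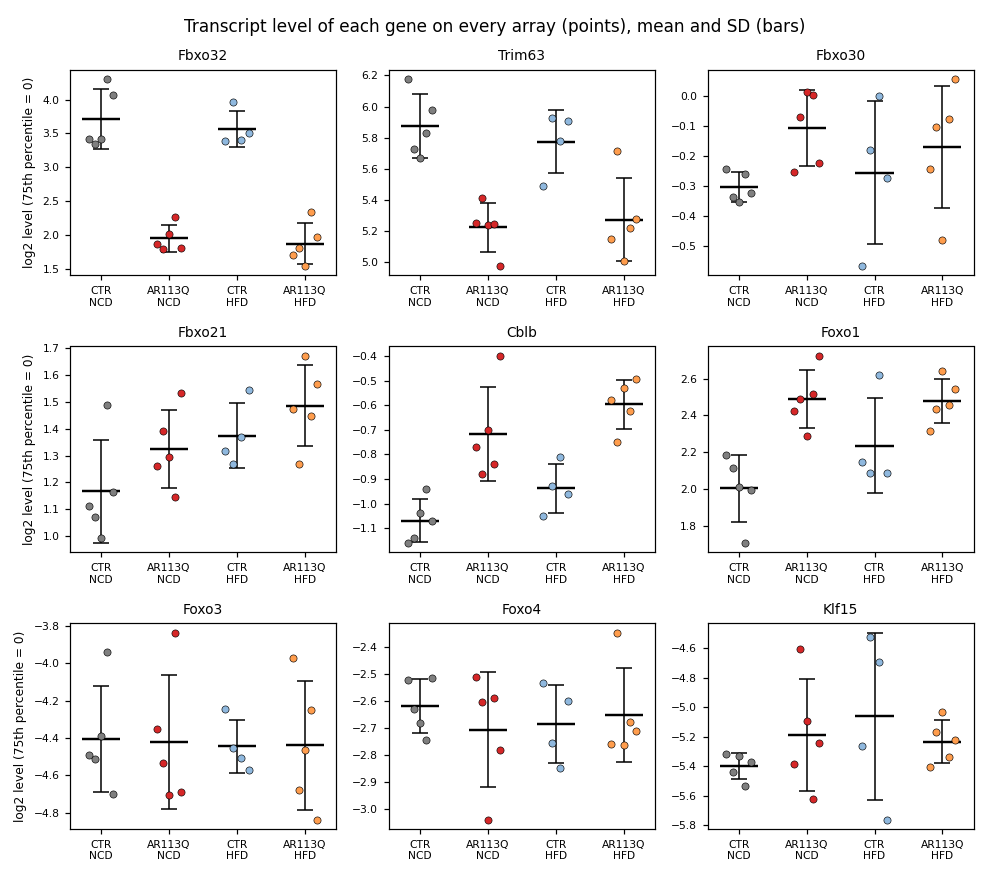
Transcript level of the brightest probe of each of the 9 genes on every array, as log2 relative to the 75th percentile of the array (vertical axis, own scale in each panel), in the 4 groups (horizontal axis). Points are arrays, the thick line is the mean and the bars are the SD; the AR113Q arrays of Fbxo32 sit between 1.54 and 2.34 and the CTR arrays between 3.34 and 4.30.

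Fbxo32 encodes the substrate-binding subunit of a Skp1-cullin-F-box ligase whose substrates include MyoD and the translation factor eIF3f. Its only probe lies at chr15:58011752-58011811 of the mouse genome build mm9, on the minus strand, and is spotted 10 times on each array. Levels were 3.42, 3.34, 3.42, 4.30 and 4.06 on the CTR-NCD arrays and 1.86, 1.80, 2.01, 2.27 and 1.81 on the AR113Q-NCD arrays. They were 3.39, 3.97, 3.41 and 3.50 on the CTR-HFD arrays and 1.70, 1.81, 1.54, 2.34 and 1.97 on the AR113Q-HFD arrays. Every AR113Q array was below every CTR array in both diets, with 2.34 for the highest AR113Q array and 3.34 for the lowest CTR array.

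The fall in Fbxo32 was the largest of the 9 genes. Transcript levels in AR113Q-NCD were 29.5% of those in CTR-NCD, a log2 fold change of −1.76 with an SE of 0.19 (limma, adjusted p 1.17e-05). In HFD they were 30.9% of the CTR level, a log2 fold change of −1.69 with an SE of 0.21 (adjusted p 3.03e-05). Group means were 3.71 ± 0.44 (SD, n = 5) in CTR-NCD, 3.57 ± 0.27 (n = 4) in CTR-HFD, 1.95 ± 0.20 (n = 5) in AR113Q-NCD and 1.87 ± 0.30 (n = 5) in AR113Q-HFD. In this order the neighbors of one genotype did not differ beyond their spread, and the step between the genotypes did. The arrays lay on 5 slides that held both genotypes, and within slides the NCD difference was −2.25 to −1.41 on 5 slides and the HFD difference −2.16 to −1.53 on 4 slides. The lower level kept its call in all 32 alternative analyses of each diet, between −1.85 and −1.43 in NCD and between −1.81 and −1.56 in HFD. The −1.43 came under normexp, where the median of all probes in NCD was −0.55. Relative to that median Fbxo32 was at −0.88, against −1.71 in the reported fit, so the size of the fall depended on the background correction.

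Trim63 encodes a RING finger ligase of the sarcomere that targets myosin heavy chain and other thick filament proteins. Its probe 1 lies at chr4:133885025-133885084 and its probe 2 at chr4:133881557-133881616 (mm9, plus strand), 3468 bases apart. Probe 2 is shown because it gives another reading of the transcript, far from probe 1.
Trim63 probe 2: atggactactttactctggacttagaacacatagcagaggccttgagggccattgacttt

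Levels of Trim63 probe 1 were 6.18, 5.73, 5.67, 5.83 and 5.97 in CTR-NCD and 5.25, 5.41, 5.24, 5.24 and 4.97 in AR113Q-NCD. In HFD they were 5.49, 5.93, 5.78 and 5.91 in CTR and 5.15, 5.71, 5.01, 5.22 and 5.28 in AR113Q. The NCD groups did not overlap, and in HFD AR113Q replicate 2 was above CTR replicate 1. The log2 fold change was −0.65 in NCD (SE 0.13, adjusted p 0.00234) and −0.50 in HFD (SE 0.14, adjusted p 0.0189), so AR113Q muscle held 63.7% and 70.6% of the CTR level. By probe 2 the fold changes were −0.73 in NCD (adjusted p 0.00183) and −0.45 in HFD (adjusted p 0.0523), with no overlap in NCD. All 5 within-slide differences in NCD (−1.001 to −0.32) and all 4 in HFD (−0.77 to −0.22) were below 0 for probe 1.

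The HFD call of Trim63 was lost under quantile normalization (adjusted p 0.0691), median centring (0.169), normexp background correction (0.388) and a fit of the HFD arrays alone (0.0775), in the authors' values, which hold probe 2 only (0.0938), and without CTR-HFD replicate 2 (0.0637), CTR-HFD replicate 4 (0.0606) or AR113Q-HFD replicate 3 (0.0525). In NCD it was lost under normexp (−0.35, adjusted p 0.184), where the median of all probes was −0.55 and Trim63 was therefore 0.20 above the median rather than below it.

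The promoter of Trim63 is shown because it is known to bind FoxO factors and the glucocorticoid receptor side by side. The sequence is that of RefSeq for build GRCm38.p6, chr4:134314870-134315119 on the plus strand, the 250 bases before the start of the transcript. Capitals mark the palindromic motif shared by the androgen and glucocorticoid receptors, which is GNACA and its reverse complement TGTNC with 3 bases between them, followed by GTAAACA, the FoxO motif, here on the opposite strand. The motifs do not overlap, and 1 base lies between them.
Trim63 promoter: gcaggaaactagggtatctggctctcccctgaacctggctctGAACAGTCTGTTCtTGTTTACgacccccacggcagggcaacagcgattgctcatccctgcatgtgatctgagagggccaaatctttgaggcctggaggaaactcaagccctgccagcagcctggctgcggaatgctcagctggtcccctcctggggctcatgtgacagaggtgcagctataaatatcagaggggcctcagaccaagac

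The receptor motif spans 208 to 196 bases and the FoxO motif 194 to 188 bases before the start. On either strand of the same window, 0.387% of 32851 promoters held the receptor motif, 3.17% held the FoxO motif and 3 promoters held both. Of the 9 genes, 7 had a promoter in the set searched, and Trim63 was the only one of these 7 with either motif. Fbxo32 and Foxo4 had no promoter in this set, so theirs were not searched. A match describes the letters, and binding was not measured.

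Fbxo30 encodes the F-box protein of a ligase that is repressed by bone morphogenetic protein signaling in muscle. Its probe 1 (chr10:11016601-11016660, mm9, plus strand) ranged under NCD from −0.35 to −0.24 in CTR and from −0.25 to 0.01 in AR113Q, and under HFD from −0.57 to −0.00 in CTR and from −0.48 to 0.05 in AR113Q. The genotype differences were 0.20 in NCD (95% confidence interval −0.03 to 0.42, adjusted p 0.242) and 0.08 in HFD (−0.15 to 0.32, adjusted p 0.681). Probe 2 is a 60-base probe whose ends lie 3704 bases apart in the genome (chr10:11011329-11015032), so it crosses a splice junction. Its differences were 0.29 in NCD (adjusted p 0.189) and 0.37 in HFD (adjusted p 0.106), and averaged over the diets it was 0.33 (95% confidence interval 0.11 to 0.55, adjusted p 0.0224).

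Fbxo21 encodes another F-box protein of the atrophy program, under FoxO control in fasted and denervated muscle. Its probe (chr5:118459897-118459956, plus strand) ranged under NCD from 0.99 to 1.49 in CTR and from 1.14 to 1.53 in AR113Q, and under HFD from 1.27 to 1.54 in CTR and from 1.27 to 1.67 in AR113Q, and all groups overlapped. The genotype differences were 0.16 in NCD (95% confidence interval −0.05 to 0.37, adjusted p 0.336) and 0.11 in HFD (−0.12 to 0.34, adjusted p 0.554).

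Cblb encodes a RING finger ligase known in muscle for marking the insulin receptor substrate IRS1 for breakdown during unloading. Levels of its probe 1 (chr16:52207889-52207948, plus strand) were −1.16, −1.14, −1.04, −0.94 and −1.07 in CTR-NCD and −0.77, −0.88, −0.70, −0.84 and −0.40 in AR113Q-NCD. In HFD they were −1.05, −0.93, −0.81 and −0.96 in CTR and −0.58, −0.75, −0.53, −0.63 and −0.50 in AR113Q. Every AR113Q array was above every CTR array of its diet. The rise was 0.35 in NCD (SE 0.09, adjusted p 0.00842) and 0.34 in HFD (SE 0.09, adjusted p 0.0137), folds of 1.28 and 1.27.

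Probe 2 of Cblb, 2382 bases from probe 1 (chr16:52205507-52205566), gave −0.17 in NCD (adjusted p 0.732) and −0.05 in HFD (adjusted p 0.931), and its spread within a group was larger, with SDs of 0.37 to 0.50. The call of Cblb therefore rests on probe 1: by the mean of both probes the differences were 0.09 and 0.15 (adjusted p 0.735 and 0.556), and the authors' values hold probe 2 only. By probe 1 the call was also lost under median centring (adjusted p 0.078 in NCD and 0.1 in HFD) and normexp (0.458 and 0.42), and in HFD without CTR-HFD replicate 1 (0.0502).

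Of the genes whose arrays did not overlap, Fbxo32 and Trim63 were all lower and Cblb and Foxo1 all higher in NCD, 2 in each direction, beside 8.08% of all genes all lower and 7.4% all higher. In HFD Fbxo32 was all lower and Cblb all higher, beside 8.46% and 7.19% of all genes. A 2-sided exact permutation test of the difference in means, which cannot go below p = 0.00794 with these group sizes, gave that smallest p for Fbxo32 in both diets and for Trim63, Cblb and Foxo1 in NCD. The exact test gave p = 0.0159 for Cblb and p = 0.0317 for Trim63 in HFD, and p = 0.0159 for Fbxo30 in NCD, which limma did not call. After Benjamini-Hochberg adjustment over these 18 tests, 7 were under 0.05.

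**Figure D2:**
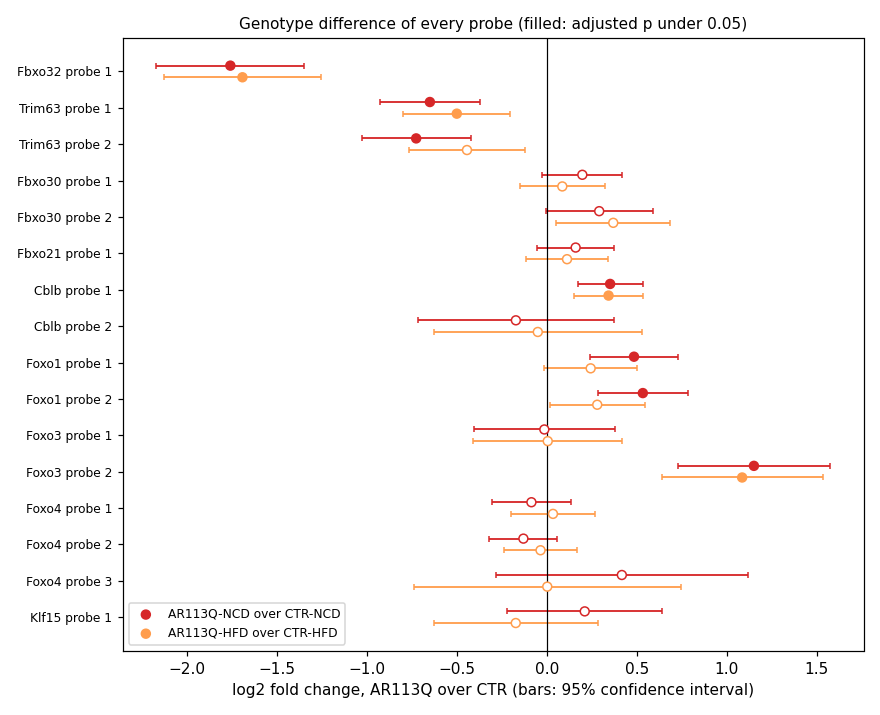
Log2 fold change of AR113Q over CTR (horizontal axis, 0 marked) for each of the 16 probes (vertical axis), in NCD and in HFD. Bars are 95% confidence intervals and filled points have an adjusted p under 0.05; the probes of Cblb and of Foxo3 differ from each other, while those of Trim63 and of Foxo1 lie on the same side of 0.

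Foxo1 encodes the FoxO factor best known for repressing muscle growth and favoring the use of fat over glucose. Its probe 1, at chr3:52150183-52150242 (mm9, plus strand), is the reading given first, and its probe 2 lies 3106 bases downstream (chr3:52153289-52153348). The sequence of probe 1 is shown because it is the brighter probe, by which Foxo1 was called.
Foxo1 probe 1: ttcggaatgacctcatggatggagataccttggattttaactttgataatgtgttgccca

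Levels of Foxo1 probe 1 were 2.19, 2.12, 2.01, 1.71 and 1.997 in CTR-NCD and 2.42, 2.49, 2.29, 2.52 and 2.72 in AR113Q-NCD. They were 2.15, 2.09, 2.62 and 2.09 in CTR-HFD and 2.32, 2.44, 2.64, 2.46 and 2.54 in AR113Q-HFD. In NCD the groups did not overlap; in HFD CTR replicate 3 reached the level of the AR113Q arrays, while the other three CTR arrays were below all of them. The rise was 0.48 in NCD (SE 0.11, adjusted p 0.007), a fold of 1.40, and the HFD difference was 0.24 (95% confidence interval −0.01 to 0.50, adjusted p 0.202). Probe 2 gave 0.53 in NCD (adjusted p 0.00448) and 0.28 in HFD (adjusted p 0.149). Without CTR-HFD replicate 3 the HFD difference was 0.37 (adjusted p 0.0249) by probe 1 and 0.42 (adjusted p 0.0125) by probe 2, and under normexp the NCD call of probe 1 was lost (0.64, adjusted p 0.0837). The difference between the 2 diets' effects was −0.24 (95% confidence interval −0.59 to 0.11, adjusted p 1).

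Foxo3 encodes the FoxO factor that, in cultured myotubes and in mice, is sufficient to turn on Fbxo32 and autophagy genes. The probes of this gene disagreed. Probe 1, designed on the RefSeq transcript NM_019740 (chr10:41905610-41905669, minus strand), ranged under NCD from −4.70 to −3.94 in CTR and from −4.70 to −3.84 in AR113Q, and under HFD from −4.57 to −4.24 in CTR and from −4.84 to −3.97 in AR113Q. Its differences were −0.02 in NCD (95% confidence interval −0.41 to 0.38, adjusted p 0.973) and 0.00 in HFD (−0.41 to 0.42, adjusted p 0.994).

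Probe 2 of Foxo3, designed on the cDNA clone AK143198, lies 61678 bases away on the same strand (chr10:41967288-41967347). Levels were −4.72, −5.86, −5.19, −4.66 and −5.37 in CTR-NCD and −4.03, −3.78, −4.05, −4.36 and −3.84 in AR113Q-NCD. They were −4.48, −5.18, −5.10 and −4.93 in CTR-HFD and −3.57, −4.00, −3.91, −3.97 and −3.74 in AR113Q-HFD. The genotypes did not overlap in either diet, with differences of 1.15 in NCD (SE 0.20, adjusted p 0.000667) and 1.08 in HFD (SE 0.21, adjusted p 0.00166).

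The end of Foxo3 probe 2 is shown because of its base composition, with runs of T in capitals. Of its last 30 bases 20 are T, a count reached or exceeded by 0.251% of the probes of the array.
Foxo3 probe 2, last 30 bases: catctggTTTTgTTgTTgTTTTggTTTTTT

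The mean levels of the Foxo3 probes were −4.43 and −4.46, so the choice of probe 1 as the brighter one turned on a small difference, and by the mean of both probes Foxo3 would be called higher in both diets (0.57, adjusted p 0.0145, and 0.54, adjusted p 0.0255). Under normexp the difference of probe 2 was −0.64 in NCD (adjusted p 0.273), where the median of all probes was −0.55, and was 0.40 in HFD (adjusted p 1), so its call was lost in both diets. Whether probe 2 reads the Foxo3 messenger RNA, an intron or another transcript was not tested, and no annotation of build mm9 was used.

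**Figure D3:**
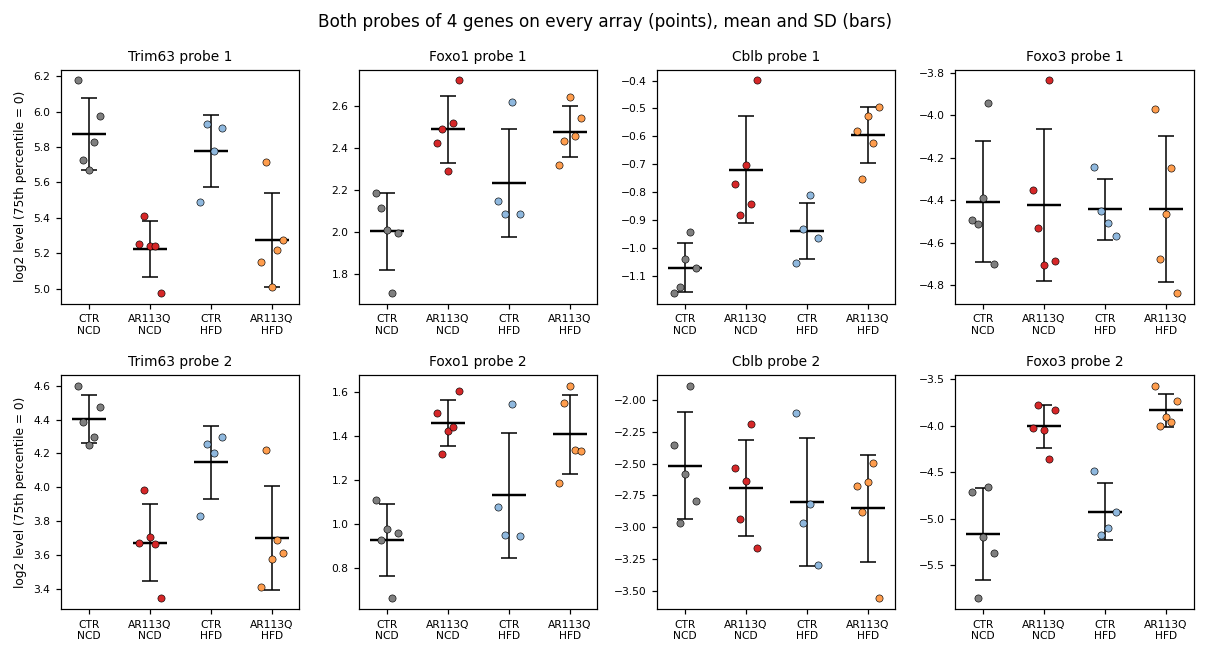
Transcript level of probe 1 (upper row) and probe 2 (lower row) of Trim63, Foxo1, Cblb and Foxo3 on every array, as log2 relative to the 75th percentile of the array. Points are arrays, thick lines means and bars SDs; both probes of Trim63 were lower and both of Foxo1 higher in AR113Q-NCD, while for Cblb probe 1 alone and for Foxo3 probe 2 alone separated the genotypes.

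Foxo4 encodes the X-linked FoxO factor. Probe 1 (chrX:98454966-98455025) and probe 2 (chrX:98454974-98455033) share 52 bases, so they count as 1 reading. Probe 1 ranged under NCD from −2.74 to −2.51 in CTR and from −3.04 to −2.51 in AR113Q, and under HFD from −2.85 to −2.53 in CTR and from −2.76 to −2.35 in AR113Q. The genotype differences were −0.09 in NCD (95% confidence interval −0.31 to 0.13, adjusted p 0.66) and 0.03 in HFD (−0.20 to 0.27, adjusted p 0.887). Probe 3, on another transcript (chrX:98451524-98451583), was dim and variable, with levels of −6.16 to −4.00 and differences of 0.42 (adjusted p 0.469) and 0.00 (adjusted p 0.999).

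Klf15, the glucocorticoid-induced factor, gave a dim signal. Its probe (chr6:90425144-90425203, plus strand) was not well above background on 1 of the 19 arrays, CTR-HFD replicate 4, and 76.7% of its bases are A or T. Levels ranged under NCD from −5.53 to −5.32 in CTR and from −5.62 to −4.60 in AR113Q, and under HFD from −5.76 to −4.52 in CTR and from −5.41 to −5.03 in AR113Q. The differences were 0.21 in NCD (95% confidence interval −0.22 to 0.64, adjusted p 0.569) and −0.17 in HFD (−0.63 to 0.28, adjusted p 0.66). A change of Klf15 smaller than these intervals was not detectable with this probe.

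Comparison of the diets addressed whether the high-fat diet altered the same transcripts. Between AR113Q-HFD and AR113Q-NCD 0 of the 9 genes were called by limma, with differences of −0.08 to 0.16 by the brightest probes, and 0.0202% of all genes were called. Between CTR-HFD and CTR-NCD 0 were called, with differences of −0.14 to 0.34, and 0% of all genes were called. No probe of the 16 had an unadjusted p under 0.05 in either diet comparison. The test of whether the genotype difference depends on diet called 0 of the 9 and 0% of all genes, with 0 of the 16 probes at an unadjusted p under 0.05. For Fbxo32 the diet differences were −0.08 in AR113Q (95% confidence interval −0.49 to 0.34) and −0.14 in CTR (−0.58 to 0.29), and for Trim63 0.05 (−0.23 to 0.33) and −0.10 (−0.40 to 0.20), so a diet effect of the size of the genotype difference in Fbxo32 lies outside these intervals. The widest interval among the brightest probes extended 0.46 to each side of the difference in CTR, and effects within such an interval could not be told from none.

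Against CTR-NCD, which is also the control of the NCD comparison, AR113Q-HFD had 3 genes higher (Foxo1, Cblb and Fbxo21) and 2 lower (Fbxo32 and Trim63), beside 10.3% of all genes higher and 10.8% lower. The log2 fold change was −1.84 for Fbxo32 (adjusted p 4.56e-06) and −0.60 for Trim63 (adjusted p 0.00322). Fbxo21 was 0.32 higher (95% confidence interval 0.11 to 0.53, adjusted p 0.0315). The call of Trim63 was lost under median centring (−0.52, adjusted p 0.0611) and under normexp (−0.22, adjusted p 0.381), where the median of all probes was −0.65, below Trim63. The call of Cblb was lost under normexp (adjusted p 0.173), by the mean of its probes (0.772) and in the authors' values, which hold probe 2 only (0.535). The call of Fbxo21 was lost under median centring (adjusted p 0.0791), with those groups alone (0.0739), without CTR-NCD replicate 1 (adjusted p 0.0675), 2 (0.0692), 3 (0.0821) or 5 (0.0534), and without AR113Q-HFD replicate 1 (0.0525), 3 (0.0852) or 5 (0.074).

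Other genes of the pathway were read from 5 lists, whose counts stand beside 8.31% of all genes higher and 9.04% lower in NCD and 7.74% higher and 10.2% lower in HFD. List medians stand beside a median log2 fold change over all genes of −0.06 in NCD and −0.08 in HFD. Of 27 other ubiquitin ligases and ubiquitin system genes, 1 was higher and 9 were lower in AR113Q-NCD, with a median log2 fold change of −0.06 beside −0.06 over all genes, and 1 was higher and 9 lower in HFD. Fbxl22, an F-box protein of the Z-disc, rose by 1.57 in NCD (adjusted p 5.82e-06) and by 1.78 in HFD. Asb2, a cullin-5 ligase subunit that restrains muscle mass, fell by 1.15 and by 1.07 (NCD adjusted p 3.82e-06). Trim54, the MuRF3 ligase related to Trim63, fell by 0.61 and by 0.60.

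Of 26 FoxO target genes outside the 9, 7 were higher and 2 lower in NCD, with a median of 0.08, and 6 were higher and 3 lower in HFD, with a median of 0.07. Gadd45a, a stress gene that is also induced by denervation, rose by 1.23 in NCD (adjusted p 9.04e-06) and by 1.05 in HFD. Sesn3, a sestrin that restrains mTORC1, rose by 0.79 and 0.87, the lysosomal protease Ctsl by 0.50 and 0.32, and catalase (Cat) by 0.82 and 0.58. The genes named here all rose, but the list went both ways, with log2 fold changes down to −0.61 in NCD and −0.93 in HFD.

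Among 16 upstream regulators of FoxO, 4 were higher and 4 lower in NCD, with a median of −0.03, and 2 were higher and 4 lower in HFD. The kinase Sgk1, which phosphorylates and inhibits FoxO factors, fell by 1.31 in NCD (adjusted p 0.000322) and by 1.48 in HFD. Prkaa1, a catalytic subunit of AMPK, rose by 0.43 in both diets (NCD adjusted p 4.59e-05). The acetyltransferase Crebbp fell by 0.38 in NCD and by 0.29 in HFD, and the deacetylase Sirt1 rose by 0.34 in NCD (0.14 in HFD, adjusted p 0.288).

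Of 14 glucocorticoid response genes and Klf15 targets, 1 was higher (Mt1, a metallothionein, 0.71) and 1 was lower (Zbtb16, −0.45) in NCD, shares near those of all genes. In HFD Mt2 was higher (0.83), and Prodh (−0.50), Tsc22d3 (−0.66), Klf9 (−0.28) and Zbtb16 (−0.39) were lower, 1 and 4 of the 14, the first 4 of these genes being named after their values were seen. The list's median was 0.10 in NCD and −0.10 in HFD, beside −0.06 and −0.08 over all genes. Of 11 genes of the denervation response, 4 were higher and 0 lower in NCD, with a median of 0.43, and 5 were higher and 1 lower in HFD, with a median of 0.70. Chrna1, the acetylcholine receptor alpha subunit, rose by 1.51 in NCD (adjusted p 6.17e-06) and by 1.99 in HFD. Runx1 rose by 1.25 and 1.09, Musk by 0.79 and 1.22, and myogenin (Myog), a factor known to act on the Fbxo32 and Trim63 promoters after denervation, by 0.82 and 0.70. On the same arrays Fbxo32 and Trim63 were lower.

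**Figure D4:**
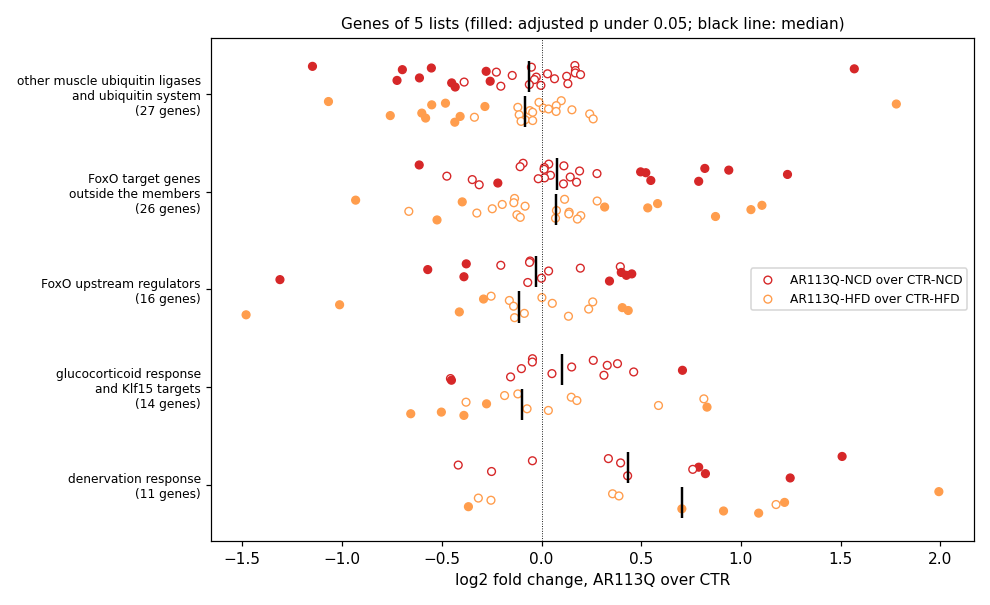
Log2 fold change of AR113Q over CTR (horizontal axis) of every tested gene of 5 lists (vertical axis), in NCD and in HFD. Filled points have an adjusted p under 0.05 and black lines are list medians; 4 of 11 denervation genes in NCD and 5 of 11 in HFD were higher, and 9 of 27 other ubiquitin genes were lower in each diet.

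The genes whose level over the 19 arrays was most like that of a member were found by Pearson's r among 16823 other genes with a RefSeq transcript. The arrays share 4 groups and 5 slides, so r holds group differences and array effects. Each r with such a gene is also the top of a search over all 16823, and the values that chance gives in this search were not tested. Fbxo32 was most like 4930453N24Rik (r = 0.981) and Itpr1 (0.976), the inositol trisphosphate receptor, and Trim63 most like Mapkap1 (0.91) and Pde7a (0.904). Cblb was most like Arhgef25 (0.926) and Ptpdc1 (0.923), and Foxo1 most like Fdxr (0.866) and Atf7ip (0.86). For the genes that were not called, the nearest were Slc25a11 (0.837) and Gzf1 (0.833) for Fbxo30, AW554918 (0.833) and Ncapd3 (0.788) for Fbxo21, Has3 (0.896) and Tfap2a (0.867) for Foxo3, Olfr646 (0.741) and Slain2 (0.724) for Foxo4, and Gcc1 (0.855) and Aqp1 (0.83) for Klf15. Among the members, the levels of Fbxo32 and Trim63 had r = 0.83 over the 19 arrays, and after the group means were taken out r was 0.20. Of the 36 pairs, the residual r was highest for Fbxo21 with Cblb (0.614) and lowest for Cblb with Foxo4 (−0.634).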

How the data were processed

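Cy3-labeled RNA from 19 quadriceps samples was hybridized by the authors to one-color Agilent arrays and read with Agilent Feature Extraction 10.7.3.1. The deposited scanner files hold processed intensity, already background-subtracted, for 43020 spots of 39429 probes. The authors also deposited a table of log2 values for 25944 probes, which holds 11 of the 16 probes described here. Outlier spots were dropped, spots of a probe averaged, log2 taken and the 75th percentile of each array subtracted. Probes well above background on at least 4 arrays were kept. The 4 groups were fitted together with limma 3.58.1 in R 4.3.3, Benjamini-Hochberg adjustment ran over all 32026 probes, and the number of arrays limits precision. The procedure was tested on simulated data with independent noise on each array, which leaves out any correlation between arrays. In NCD, deviations from the group means correlated at 0.237 to 0.447 between arrays of the same replicate number in all 5 pairs. These pairs also share a slide, so pairing by number and a slide effect cannot be told apart. The members, lists and naming rules (every probe, 2 most alike genes, up to 4 genes of smallest adjusted p per list) were chosen with earlier results of these data known. Alternatives were other scalings, background correction, filters, probes, blocks, variance estimates, call rules and leaving out arrays. The values of 1 gene that the naming rule selects are not reported here.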

Additional observations from a re-analysis of the deposited data

Results flagged for a closer look

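In 3 of 64 sets of values (16 probes in 4 groups), 1 array lay far from the rest of its group by Dixon's test, a rate near the 1 in 20 that chance gives. Foxo1 probe 1 in CTR-HFD replicate 3 was 2.62, with the other three arrays at 2.09 to 2.15, and its effect on the HFD difference is given with that gene. Foxo4 probe 1 in AR113Q-HFD replicate 2 was −2.35, with the others at −2.76 to −2.68. Foxo4 probe 3 in CTR-NCD replicate 5 was −4.50, with the others at −6.16 to −5.79.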

How the results depend on the processing

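The number of genes called kept within 1.5 times of the reported count in most alternatives. These include the diet and interaction comparisons, where the number was 0 throughout. A kept count can hold other genes: by the mean of all probes in NCD, Cblb was lost (limma, adjusted p 0.735) and Foxo3 gained (0.57, adjusted p 0.0145). In NCD the number called went from 4 to 1 under normexp and to 1 where a fold of 1.5 was also required. In HFD it went from 3 to 1 under median centring, normexp, the authors' values and the fold rule, and averaged over the diets from 4 to 1 under normexp and to 1 under the fold rule. For AR113Q-HFD against CTR-NCD it went from 5 to 3 under median centring, 3 under normexp and 1 under the fold rule. The 7 adjusted permutation calls became 0 under normexp and 4 in the authors' values, and 4 to 8 with an array left out. With an array left out, the limma counts were 4 in NCD, 2 to 4 in HFD and 4 to 5 for AR113Q-HFD against CTR-NCD. The replicate block left the counts at 4 in NCD, 3 in HFD and 5 for AR113Q-HFD against CTR-NCD, so blocking by replicate number changed none of these counts. In HFD the deviations of same-numbered arrays correlated at −0.206 to 0.434, and 3 of the 4 pairs share a slide. The reported fit did not pair the arrays in either diet. Under normexp, which moved the median of all probes in NCD to −0.55, Foxo3 probe 2 turned to −0.64 and Klf15 to −1.001 in NCD, and Foxo3 probe 1 to −0.0157 in HFD. Foxo3 probe 1 had another sign in NCD by quantile normalization (0.0844), by median centring (0.0426) and in the authors' values (0.0233), but relative to the median of all probes it was above 0 in these and as reported (0.01 to 0.07). It was 0.57 in NCD by the mean of its probes, and it turned in HFD to −0.10 with a slide block. Foxo4 turned to −0.00448 with array weights and −0.000707 by the mean of its probes in HFD, and to 0.0658 by that mean in NCD. With arrays left out, differences that passed no test crossed 0 for Fbxo30 (−0.0186 to 0.17), Foxo3 (−0.11 to 0.10), Foxo4 (−0.0430 to 0.0834) and Klf15 (−0.41 to 0.00622) in HFD and for Foxo3 in NCD (−0.16 to 0.10). The cause of these changes was not tested. Of the 16 probes, that of Klf15 was the only one not well above background on every array.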
